A study of Mus musculus with 12 samples.

Results

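M200000089 is 1 of the 35856 oligos on the arrays of this series, and its signal in spleen RNA took either of 2 widely separated levels. It was chosen by its identifier and for that pattern, so its spleen values over the 12 arrays are a description and carry no test. The series profiled spleens of 564 Igi mice in 3 age groups, with 3 samples of 4 months, 3 of 8 months and 4 of 12 months, and 2 spleen samples of C57BL/6 wild type controls, all of 4 months. All samples are described as female and on a C57BL/6 background. The 564 Igi samples carry the genotype 564+/- in their descriptions, whereas the treatment text says that mice homozygous at both loci, called 564+/+, were used for all work on the strain. That text also says that part of the 564+/+ colony was kept on water with Ampicillin, Metronidazole, Neomycin and Vancomycin, and it does not say which samples came from there. No C57BL/6 sample older than 4 months was measured, and the labels do not say that each sample came from a separate mouse.

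The 564 Igi strain carries knock-in antibody genes at both of its targeted loci, so that most of its B cells start out with one autoreactive receptor. The spleen is a lymphoid organ rich in B cells that also filters blood and, in the mouse, makes blood cells. On a 2-colour array each oligo is a short DNA strand that captures matching labelled cDNA, and the brightness of its spot in each colour reports how much of that sequence each RNA pool held. Here Cy3 marked the spleen RNA, and Cy5 marked a universal reference RNA, a fixed mixture used on every array. A log2 ratio above 0 means more signal from spleen than from the reference. Dyes were not swapped, so any dye effect of an oligo is part of every ratio.

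The sequence is shown because the files give the oligo no gene name, and it is the only handle on the transcript. In M200000089 the capitals mark its longest run of bases shared in the same orientation with any other oligo of the array, M300001846. The second oligo with a run of that length, M400014515, holds it as the reverse complement of bases 26 to 39 of M200000089.
M200000089: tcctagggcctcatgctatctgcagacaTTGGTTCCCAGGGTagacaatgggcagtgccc
M300001846: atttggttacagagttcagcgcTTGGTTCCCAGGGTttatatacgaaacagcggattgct
M400014515: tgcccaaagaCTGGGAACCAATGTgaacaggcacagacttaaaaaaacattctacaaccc
Both shared runs are 14 bases of the 60, at bases 29 to 42 of M200000089 for the first. Neither of these oligos carried the pattern of M200000089. M300001846 lay between -0.22 and 0.16 and M400014515 between 0.12 and 0.46 on the log2 ratio scale over all 12 arrays, each well above background in Cy3 on every array.

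M200000089 has a GC content of 56.7%, against a median of 48.3% over all oligos, and 89.3% of oligos have a lower one. Of its 3 forward reading frames 1 has no stop codon, and of its reverse frames 0 do. At least 1 open forward frame was present in 89.9% of the oligos of 60 bases, so the open frame does not set this oligo apart. Searched on both strands, the longest run it shares with any of 32851 RefSeq promoter windows (GRCm38, from 250 bases before to 50 after a gene's start) is 15 bases, and with any of 1005 RefSeq miRNA hairpins 10 bases. A shared run of 20 bases was required to name a gene, which 926 of the 35856 oligos had with a promoter window. M200000089 is therefore given by its identifier only, and the gene it reports is not identified here.

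In the sample channel the spot was bright on 5 arrays and dim on 7. At 8 months the mean Cy3 signals of 564 Igi replicates 1, 2 and 3 were 1334, 977 and 1051 on the scanner's linear scale. At 4 months 564 Igi replicates 1 and 2 read 1743 and 1384, whereas replicate 3 read 139.7. The 12-month 564 Igi replicates 1 to 4 read 124, 108, 93.8 and 114, and the C57BL/6 replicates 95.5 and 118. All 3 arrays of 8 months were thus at the bright level, all 4 of 12 months and both of C57BL/6 at the dim level, and the 4-month 564 Igi group held arrays of both. After subtraction of the local background, without scaling between arrays, the dimmest bright spot was 8.22 times the brightest dim spot, and the brightest was 26.1 times the dimmest. The brightest was on 564 Igi 4 months replicate 1, whose median Cy3 signal over oligo spots was 148.65, against 101.5 to 127.2 on the other arrays. With Cy3 quantile normalized between arrays, the dimmest bright spot was 6.70 times the brightest dim spot.

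The dim level was still a measured one. The spot was well above background in Cy3 on 12 of 12 arrays, with a mean signal 3.35 to 5.82 times its local background on the dim arrays and 39.1 to 64.5 times on the bright ones. The local Cy3 background itself was 22 to 32 on all arrays. No array had the spot marked as saturated or uneven. The SD of Cy3 brightness over the pixels of the spot was 104 to 243 on the bright arrays and 17.2 to 22.6 on the dim arrays, small beside the distance between the levels.

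The reference channel of the same spot showed no such pattern. Its mean Cy5 signals were 229, 329.8 and 324 at 8 months, 250.4, 227 and 285 at 4 months in 564 Igi, 196, 303, 394 and 415 at 12 months, and 232 and 389 in C57BL/6, each in order of replicate. The bright arrays (227 to 329.8) lay inside the range of the dim arrays (196 to 415). These signals also differed by slide, with 196 to 250.4 on slide 1, 232 to 329.8 on slide 2 and 324 to 415 on slide 3. The levels were unequally spread over the slides, as given below. Once the channel was normalized between arrays, its log2 means were 8.22 ± 0.26 (SD, n = 2) in C57BL/6 and 8.26 ± 0.03 (n = 3), 8.25 ± 0.08 (n = 3) and 8.22 ± 0.14 (n = 4) in 564 Igi at 4, 8 and 12 months. The Cy5 signal is also the denominator of the log2 ratio on which the levels were set, so a test of it is not independent of the ratio. The 4 groups did not pass a moderated F test (limma, Benjamini-Hochberg adjusted p = 0.998 over 25281 oligos), with a range of 0.04 between the group means. That test compared the 4 groups and not the bright with the dim arrays, and the 4-month 564 Igi group held both. It therefore cannot decide whether Cy5 followed the levels. By level, the normalized log2 Cy5 signal was 8.17 to 8.33 on the bright arrays and 8.02 to 8.41 on the dim arrays. The same test called 17 oligos, 0.0672% of those tested, and 5 to 54 with 1 array left out (5 without 564 Igi 4 months replicate 1 or 12 months replicate 3, 54 without C57BL/6 replicate 2). A p above the threshold does not show that the reference was equal on all arrays, and the lowest adjusted p over all alternatives was 0.858.

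As a log2 ratio of spleen to reference, M200000089 was 2.24, 1.74 and 2.07 in 564 Igi at 8 months and 2.43, 2.15 and -0.94 at 4 months, in order of replicate. At 12 months it was -0.76, -1.24, -1.44 and -1.10, and in C57BL/6 -1.25 and -1.23. Arrays of the upper level therefore had 3.34 to 5.41 times the signal of the reference, and arrays of the lower level had a reference signal 1.69 to 2.71 times that of the spleen. No array lay between -0.76 (564 Igi 12 months replicate 1) and 1.74 (564 Igi 8 months replicate 2), a distance of 2.49 (5.63-fold). The scanner's own error of the log ratio of this spot, which covers 1 spot on 1 array, was 0.24 to 0.33 on the log2 scale. In the scanner's ratios, the lower and upper levels were -2.40 to -1.41 and 1.96 to 2.75, a distance of 3.37.

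The group means were 2.02 ± 0.26 (SD, n = 3) at 8 months, 1.21 ± 1.87 (n = 3) at 4 months and -1.13 ± 0.29 (n = 4) at 12 months in 564 Igi, and -1.24 ± 0.02 (n = 2) in C57BL/6. The mean of the 4-month 564 Igi group describes none of its arrays, since no array lay near it. Its SD was the second largest of 25999 oligos in that group, where the median SD was 0.11, and only M300016637 had a larger one (2.67). The oligo was chosen for splitting this group, so that rank follows from the choice. At 8 and 12 months the SD of M200000089 ranked 5139 and 3468 of the same oligos, so within those groups it varied far less than at 4 months. Its SD there, 0.26 and 0.29, was still above the median SD of all oligos, 0.14 and 0.15.

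The 6 differences between groups are given with the SE of a limma fit over all 12 arrays and without a test. That fit shares 1 estimate of spread, which the 4-month 564 Igi arrays at both levels widen for the other groups. With only the groups compared, the SE was 0.17 for 8 months minus C57BL/6 and 0.18 for 12 minus 8 months. It was 0.18 for 12 months and 0.93 for 4-month 564 Igi minus C57BL/6, and 0.80 and 0.69 for 8 and 12 minus 4 months. The 8-month 564 Igi mean was above that of C57BL/6 by 3.26 (SE 0.73) on the log2 scale. From 8 to 12 months the level fell by 3.15 (SE 0.61), and neither pair of groups overlapped. Over all 25999 oligos, 2.02% had every 8-month array above every 12-month array and 13.6% had every 8-month array above both C57BL/6 arrays, and since the rule used these arrays nothing is read from that. The 12-month mean differed from that of C57BL/6 by 0.11 (SE 0.69), with the C57BL/6 values inside the range of the 12-month arrays. The 4-month 564 Igi group, whose arrays lay at both levels, was 2.45 (SE 0.73) above C57BL/6. The differences of 8 minus 4 months, 0.80 (SE 0.65), and of 12 minus 4 months, -2.35 (SE 0.61), depended on 564 Igi 4 months replicate 3. Without that array they were -0.27 and -3.43, and the difference of 4-month 564 Igi from C57BL/6 was 3.53. Without replicate 1 or replicate 2 of the same group, 8 minus 4 months was 1.42 or 1.27.

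Each of the 3 slides held arrays at both levels, in unequal numbers. Slide 1 had 3 arrays at the upper level and 1 at the lower, with a distance of 2.91 between them. Slides 2 and 3 each had 1 at the upper and 3 at the lower level, with distances of 2.68 and 3.17. Within slides 1, 2 and 3, 8 months exceeded 12 months by 3.00, 2.98 and 3.34 on the log2 scale. The 4-month 564 Igi replicates at the upper level were both on slide 1, and the one at the lower level was on slide 2, so within that group level and slide cannot be told apart. By position on the slide, the numbers at the upper and lower level were 2 and 1 in positions 1 and 2, 1 and 2 in position 3, and 0 and 3 in position 4.

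The array holds M200000089 once, at row 445 and column 62 of a grid of 532 rows and 85 columns. The 22 oligo spots within 2 rows and 2 columns of it did not share its levels. Their log2 ratios spanned 0.21 to 1.50 over the 12 arrays, with a median of 0.38, where M200000089 spanned 3.87, and 0 of the 22 separated the arrays of its upper level from those of its lower level.

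Values of other oligos on 564 Igi 4 months replicate 3, the dim array of its group, are given beside its labels. M400005124, known from earlier results of these data to be far lower in 564 Igi, read -3.85 on that array, -4.09 to -3.29 on all 564 Igi arrays, and 1.80 and 2.50 on the C57BL/6 arrays. M400006858, known in the same way to be higher at 12 months, read 0.34 on that array, the highest of the 8 arrays that are not of 12 months, against -0.25 and -0.27 on the other 4-month 564 Igi arrays, 0.32 on 8 months replicate 1 and 1.25 to 1.78 on the 12-month arrays. Across oligos, which are not independent replicates and share one reference, this array correlated at r = 0.969 and 0.964 with the other 4-month 564 Igi arrays. Its highest correlations were with arrays of its own slide, 564 Igi 12 months replicate 2 (0.977) and 8 months replicate 2 (0.975). Those with the C57BL/6 arrays were 0.939 for replicate 1, which is on the same slide too, and 0.940 for replicate 2. Those with 564 Igi 8 months replicate 3 and 12 months replicate 4 were 0.942 and 0.931, and the remaining 564 Igi arrays lay at 0.961 to 0.968. These values do not place the array at a single age. M400005124 and M400006858 were known from results of these same arrays, this one among them. Their values are therefore no independent check of its labels. Within the 4-month 564 Igi group, M200000089 set replicate 3 apart by 3.09 from the nearer of the other replicates, the largest distance of all 25999 oligos. It was chosen for splitting this group, so that rank follows from the choice. M400014504, which was lower on replicate 3 by 1.92, came next. A distance of at least 1 was seen for 28 oligos.

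No other oligo followed the 2 levels with a comparable distance. Of the 25998 other oligos that passed the filter on dim spots and had a value on every array, 0 separated the 5 upper arrays from the 7 lower ones by at least 1 on the log2 scale, in the same or the opposite direction, and 0 did so by at least 0.5. M200000089 itself is thus the 0.00385% of oligos that pass that limit. A separation of any size was seen for 125 others, 50 in the same and 75 in the opposite direction. With M200000089 these make up 0.485% of the oligos, and those of its own direction 0.196%. Their gaps were small, with a median of 0.02 and a largest of 0.16, in M200004759, where that of M200000089 was 2.49. The levels were set at the largest gap of M200000089, which was chosen for its pattern. Its lead over the others therefore follows from the choice, and nothing is read from it. The separations of the others also changed with the scale used. Of the 125, 5 separated the arrays in the sample channel alone, 9 in the scanner's log ratios and 18 with median centring in place of loess, and 0 did so in each of the 6 settings compared.

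Pearson's r over the 12 arrays was used as the measure of likeness, and it reflects chiefly the 2 clusters of arrays. An absolute r of at least 0.9 was reached by 3 other oligos and of at least 0.8 by 96. The 5 most alike are printed because they are the nearest to company that the oligo has, all in lower case since no stretch of them stands out.
M400002244: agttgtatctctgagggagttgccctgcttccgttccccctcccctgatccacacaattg
M200004759: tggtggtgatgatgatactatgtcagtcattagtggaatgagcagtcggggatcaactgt
M400017358: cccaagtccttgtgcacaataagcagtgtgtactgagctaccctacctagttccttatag
M400005595: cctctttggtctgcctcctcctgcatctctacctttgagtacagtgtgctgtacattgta
M400005567: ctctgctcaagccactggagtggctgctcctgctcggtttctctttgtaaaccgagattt
They share no run longer than 7 bases with M200000089 or with each other, and 0 of the 5 matched a promoter window over 20 bases, so they too are given by identifier.

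Their changes were minor beside that of M200000089. M200004759 (r = 0.91) read 0.73 to 0.77 on the upper arrays and 0.36 to 0.56 on the lower, the clearest separation among them. M400017358 (r = 0.91) read 0.42 to 0.76 and 0.26 to 0.38, and M400005567 (r = 0.89) 0.09 to 0.28 and -0.23 to 0.06. In the opposite direction, M400002244 (r = -0.92) read -0.63 to -0.49 on the upper arrays and -0.44 to -0.29 on the lower, and M400005595 (r = -0.89) -0.52 to -0.32 and -0.29 to -0.12. Over all 12 arrays these oligos spanned 1.26-fold to 1.43-fold. Within the 7 lower arrays their r with M200000089 lay between -0.63 and 0.50, and that of M200004759 was -0.63 where its r over all arrays was positive.

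The likeness of these oligos depended on the scale. In the sample channel alone their r was -0.28, 0.26, 0.58, -0.23 and 0.57 in the order printed, and the best of them, M400017358, ranked 1587 of 25998. With median centring M400002244 and M400005595 changed sign (r = 0.44 and 0.39), while M400017358 (r = 0.92, rank 3), M400005567 (r = 0.88, rank 23) and M200004759 (r = 0.86, rank 82) stayed alike. With the scanner's log ratios M400017358 ranked 17 (r = 0.86) and M200004759 119 (r = 0.78), and the others ranked 646 to 1614. On that scale M400017358 no longer separated the levels, since its upper and lower arrays overlapped by 0.06 on the log2 scale.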

How the data were processed

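Spleen RNA (Cy3) and a universal reference RNA (Cy5) were hybridized together on 12 Agilent arrays. Per the file headers, Agilent Feature Extraction 11.5.1.1 measured the spots. The deposited intensity columns hold each spot's mean brightness and median local background without normalization, with further columns of processed signals, and the deposited log10 ratios are of Cy5 over Cy3 after background removal, spatial correction and lowess dye normalization with a smooth factor of 0.25. The authors' series table holds the same log10 ratios, rounded. Deposited flag columns mark spots well above background, saturated or uneven.

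Intensities were read in R 4.3.3 with limma 3.58.1, background corrected by normexp (offset 50) and normalized by loess within each array, and the ratio was turned to log2 of sample over reference. Spots of uneven background were given the array's median background for the fit and then left out. Oligos were kept if well above background in Cy3 on all arrays of at least 1 group (Cy5 for the test of that channel, after quantile normalization), and 25999 had a value on every array. The upper and lower levels were set at the largest gap between sorted values of M200000089 with at least 2 arrays on each side. An oligo followed the levels if its arrays did not overlap and were at least 1 apart, and where fewer than 3 did, the 5 with the largest absolute Pearson r were named. Sequences were handled with Biopython 1.88. The searches were tested on simulated data. The member, the oligos given beside the labels and these settings were chosen with earlier results of these data known. Of 79 planned cell type markers, 1 could be tied to an oligo by a shared run of 20 bases with its promoter window (Jchain, M400012715, well above background in Cy3 on 12 of 12 arrays), so the tissue label was checked no further. The planned search of translated oligos was not run, and gene names were sought by nucleotide sequence only. The number of arrays limits the precision of every value, and p-values measure the spread between samples that may share an animal.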

Additional observations from a re-analysis of the deposited data

Results flagged for a closer look

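In the groups of 4 arrays, 11 oligos named here or near M200000089 in pattern or sequence were checked for an array far from the other 3, and 2 were marked, where chance marks about 1 in 20. M400005595 stood at -0.12 on 564 Igi 12 months replicate 4, above the other 12-month arrays. M400005124 stood at -4.01 on 564 Igi 12 months replicate 2, below the other 12-month arrays. M200000089 itself was not marked at 12 months. The groups of 2 and 3 arrays, with the 4-month 564 Igi group among them, are too small for this check.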

How the results depend on the processing

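The same 5 arrays formed the upper level of M200000089 under all 7 background, scaling and channel alternatives run. The distance between the levels moved from 2.49 to 2.82 with an offset of 16, 1.69 with all spots in the background fit, 2.24 with median centring, 3.37 with the scanner's log ratios and with the authors' series table alike, and 2.74 in the sample channel alone. Without each array in turn it was 2.49 to 2.83. With the scanner's ratios and the series table, 8 months exceeded C57BL/6 by 4.29 in both, and 12 minus 8 months was -4.13 in both.

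Without each array in turn, the difference from C57BL/6 was 1.84 to 3.53 at 4 months, 3.15 to 3.40 at 8 months and -0.02 to 0.21 at 12 months, and the differences of 8 minus 4, 12 minus 4 and 12 minus 8 months were -0.27 to 1.42, -3.43 to -1.74 and -3.29 to -3.04. The sign of 8 minus 4 months turned only without 564 Igi 4 months replicate 3.

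The number of others that separate by at least 1 stayed 0 under each scaling, filter and left-out array. For any gap above 0 it was 125, with 53 in the sample channel alone and 153 to 416 without each array in turn (8 months replicates 1, 2 and 3: 213, 416 and 342; 4 months 564 Igi replicates 1, 2 and 3: 235, 196 and 252; 12 months replicates 2 and 4: 284 and 200). Fewer arrays make a separation easier by construction.

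No pairing by replicate number was seen: deviations of same-numbered arrays from their group means correlated at -0.23 to 0.29, with 5 of 15 pairs above 0.1. For arrays of other numbers the range was -0.38 to 0.30, with 13 of 38 pairs above 0.1. Deviations within such small groups are tied to each other, so a weak pairing could be missed. With the replicate number as a block, 12 minus 8 months was -3.16 and 12 months minus C57BL/6 0.49 and the test of the Cy5 channel gave an adjusted p of 1.00 (limma), with 4 oligos called in place of 17. The number called in Cy5 was 71 with slide as a block and 5 (without 564 Igi 4 months replicate 1 or 12 months replicate 3) to 54 (without C57BL/6 replicate 2) with an array left out. The differences of 12 months from 8 months and from C57BL/6 were -3.11 and -0.27 with slide as a block, so the sign of 12 months minus C57BL/6, 0.11 without a block, is not settled. With that block, 4-month 564 Igi minus C57BL/6 was 1.68 in place of 2.45, and 8 months minus C57BL/6 2.83 in place of 3.26. The differences of 8 minus 4 and 12 minus 4 months were 1.15 and -1.96 in place of 0.80 and -2.35.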

Other observations

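Other oligos also split the arrays into separated sets, most of them by strain. With at least 2 arrays on each side, 76 of 25999 oligos had an empty stretch of at least 1 on the log2 scale among their sorted arrays, and in 58 of these the C57BL/6 arrays stood alone on one side. Of the 18 others, only M200000089 had a stretch of at least 2, and it was the only one of the 18 to divide the arrays as it did. M200000089 was chosen for this pattern, so nothing is read from its place among the 18.

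The next widest stretches among the 18 divided the arrays in other ways. M300016637 had one of 1.92, with 564 Igi 4 months replicates 1 and 3 and 12 months replicate 1 above it (-2.70 to -0.07) and the other 9 arrays below it (-5.60 to -4.62). Its upper values thus varied much more among themselves than the upper values of M200000089. M400012289 had one of 1.86, with all 4 arrays of 12 months and 8 months replicate 1 above it (1.61 to 2.25) and the other 7 arrays below it (-2.04 to -0.25). Both were well above background in Cy3 on 12 of 12 arrays. They were chosen after their values had been seen and carry no test. Most of the narrower stretches among the 18 shared another division, as in M200002760, with a stretch of 1.24. There 564 Igi 8 months replicate 3, 12 months replicate 4 and both C57BL/6 arrays lay above the rest.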
